A study of Mus musculus with 2 samples.

Results

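The genes described here are 8 components of the RAS pathway whose human counterparts are mutated or altered in myelomonocytic leukaemias: Nras, Hras, Nf1, Ptpn11, Cbl, Cblb, Sos1 and Braf. They were taken as a list of names, and every probe set that the platform annotation gives to 1 of them alone was used. This found 29 probe sets for 7 of the 8 genes, among 18193 genes in all. No probe set was assigned to Hras in the annotation used, so Hras was not analysed here.

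RNA came from KLS cells of mouse bone marrow, which lack lineage markers and carry c-kit and Sca, a fraction rich in stem and progenitor cells. One group was wild type and the other carried TIF1γ Δ/Δ, an inactivation, made conditionally, of the gene for TIF1γ (Trim33), a nuclear regulator of transcription. Each genotype was measured on 1 Affymetrix array, so every difference is between 2 arrays and has no replicate check, no SD between samples and no p-value. The sources used here do not give the age of the mice, the driver of the inactivation or the number of mice behind each array.

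RAS proteins are small GTPases at the cell membrane that pass signals from cytokine and growth factor receptors to the RAF, MEK and ERK kinases. Exchange factors such as SOS1 load RAS with GTP, and GTPase-activating proteins such as neurofibromin return it to the inactive state. In myeloid progenitors the pathway lies downstream of KIT, FLT3 and the receptors for colony-stimulating factors, and its activating lesions are a hallmark of juvenile and chronic myelomonocytic leukaemia. An expression array measures the amount of RNA and not whether RAS is loaded with GTP.

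Signals are the authors' MAS5 intensities, on a linear scale. The floor, above which a probe set was taken as measured, was each array's median signal, 14.4 in wild type and 11.7 in TIF1γ Δ/Δ. Differences are log2 signal on the TIF1γ Δ/Δ array minus log2 signal on the wild type array, so positive values are higher with the deletion, after the median difference of -0.024 over measured probe sets was removed. A gene is represented by its brightest probe set unless another is named, and at least 2-fold is the size that counts as apart.

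By their brightest probe sets all 7 genes lay above 0, and none was 2-fold apart. The differences ran from 0.077 for Braf to 0.86 for Ptpn11, with a median of 0.31. Over the 10365 genes measured on both arrays the median was 0.044 and 53.1% lay above 0, with an interquartile range from -0.32 to 0.40. Ptpn11, Nras and Cblb lay above that range, and Sos1, Cbl, Nf1 and Braf within it. Of 11724 genes measured on at least 1 array, 2.53% were higher and 6.01% lower by 2-fold or more. The position of all 7 above 0 depended on the processing for the smallest value, as Braf was at -0.0014 with loess scaling. When the log2 signals of all probe sets of a gene were averaged, Braf was at -0.23 and Cblb at -0.19. In a sorted population, fewer cells of a type and less RNA per cell cannot be told apart.

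Among the 29 probe sets, 15 were measured on both arrays, 4 on 1 array and 10 on neither. Of the 15, 12 lay above 0 and 3 below it, against 52.3% above 0 for the 17738 named probe sets measured on both. Of the 19 that were measured at all, none was higher by 2-fold or more and 2 were lower. The background was 2.77% higher and 5.91% lower among 20775 probe sets. Both lower probe sets, 1 of Cblb and 1 of Braf, differed in direction from the brightest probe set of the same gene. Probe sets of 1 gene read the same RNA sample and are no replicates.

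**Figure D1:**
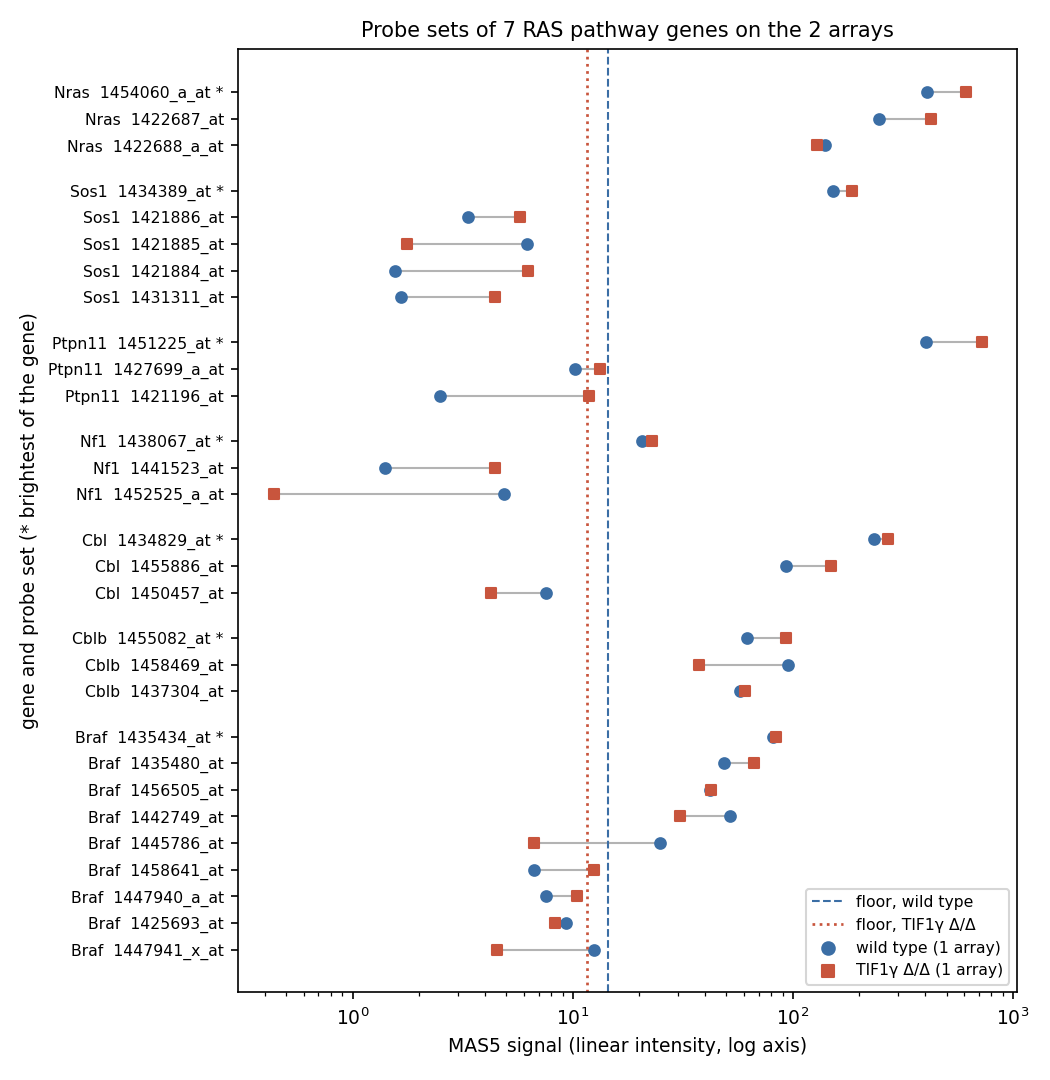
MAS5 signal (linear intensity, log axis) of the 29 probe sets of 7 RAS pathway genes on the wild type array (blue circles) and the TIF1γ Δ/Δ array (red squares), with each array's floor as a vertical line and the brightest probe set of a gene starred. Ptpn11 1451225_at and Nras 1454060_a_at and 1422687_at are bright and shifted to higher signal with the deletion, Cblb 1458469_at is shifted the other way, and 10 probe sets lie under the floor on both arrays.

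NRAS is the RAS isoform most often mutated in chronic myelomonocytic leukaemia. Nras probe set 1454060_a_at gave 407 in wild type and 613 in TIF1γ Δ/Δ cells, a log2 difference of 0.61. Probe set 1422687_at gave 248 and 425 (log2 0.80). The third, 1422688_a_at, gave 141 and 129 (log2 -0.10). The brighter pair thus differed the same way, by 1.53-fold and 1.74-fold, while the dimmest showed almost no difference. The spread of 0.90 between the highest and the lowest was reached or passed by 22.2% of the 4534 genes with several probe sets measured on both arrays. These genes had 2 or more such probe sets, and the share was not matched for that number. All 3 were bright for their array, at percentiles from 81.1 to 93.9 of all probe sets.

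Nras lies on chromosome 3, the chromosome of the deleted gene, Trim33. In the RefSeq gene order used here, 3 protein-coding genes stand between them. Ampd1, an adenosine monophosphate deaminase of muscle, was under the floor on both arrays. Dennd2c, an exchange factor for RAB GTPases, gave 15.1 and 18.1 (log2 0.29). Bcas2, a splicing factor next to Trim33, gave 373 and 260 with 1418234_s_at (log2 -0.49) and 302 and 103 with 1437262_x_at (log2 -1.53). Trim33 itself gave 379 and 172 with 1426954_at (log2 -1.12) and 61.0 and 34.5 with 1455189_at (log2 -0.80). Bcas2 was thus lower together with Trim33, and Nras and Dennd2c were not. The sources used here do not give the strain from which the region around the deletion came, and its part in these values was not tested.

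SOS1 is the widely expressed exchange factor that loads RAS with GTP after GRB2 brings it to a receptor. Sos1 probe set 1434389_at gave 153 and 187, a log2 difference of 0.31 or 1.24-fold. The other 4 Sos1 probe sets lay under the floor on both arrays, with no signal above 6.27. The level of Sos1 therefore rests on 1 probe set.

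Ptpn11 encodes SHP2, a tyrosine phosphatase that is needed for full RAS activation downstream of many receptors and is the gene most often mutated in juvenile myelomonocytic leukaemia. Ptpn11 had the largest difference of the 7 genes. Its bright probe set, 1451225_at, gave 404 and 724 (log2 0.86, 1.82-fold), a difference above that of 95.3% of the genes measured on both arrays. The other 2 were dim, with 10.3 and 13.3 for 1427699_a_at and 2.49 and 11.8 for 1421196_at. Both dim probe sets were measured only with the deletion, and since the floor was lower there they give no bound on the difference. As deposited, all 3 probe sets of Ptpn11 had the higher signal on the TIF1γ Δ/Δ array. The difference of Ptpn11 rests on 1451225_at, since the other 2 lay near or under the floors.

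Neurofibromin, the product of Nf1, is a GTPase-activating protein that switches RAS off, and its loss in the germ line predisposes to juvenile myelomonocytic leukaemia. Nf1 probe set 1438067_at gave 20.6 and 22.8 (log2 0.17), not far above the floors. The remaining 2 Nf1 probe sets lay under the floor on both arrays. Nf1 was thus weakly measured, by 1 dim probe set.

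CBL and CBLB are ubiquitin ligases that tag activated receptors such as KIT and FLT3 for degradation, and CBL is mutated in myelomonocytic leukaemias. For Cbl, 1434829_at gave 234 and 272 (log2 0.24), and the signals of 1455886_at were 92.9 and 149 (log2 0.71), while 1450457_at stayed below both floors. Both measured probe sets of Cbl thus lay above 0, by 1.18-fold and 1.63-fold.

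The probe sets of Cblb disagreed. Its brightest, 1455082_at, gave 61.8 and 92.8 (log2 0.61), and 1437304_at gave 57.8 and 60.9 (log2 0.098). Probe set 1458469_at gave 95.5 and 37.3 (log2 -1.33, 2.52-fold lower). On the wild type array this last was the brightest of the 3 and on the TIF1γ Δ/Δ array the dimmest. The spread of 1.94 between them was matched or passed in 1.61% of the 4534 genes with 2 or more measured probe sets. That share was not matched for the number of probe sets of a gene. The choice of probe set sets the direction for Cblb, which was at -0.19 when the log2 signals of its probe sets were averaged. The sources used here do not give which transcripts each probe set reads, so the difference cannot be assigned to a form of the RNA.

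BRAF is the kinase that RAS-GTP recruits to start the MEK and ERK cascade. Of its 9 probe sets, 4 were measured on both arrays. Braf 1435434_at gave 81.2 and 84.3 (log2 0.077), 1456505_at gave 42.3 and 42.7 (log2 0.037) and 1435480_at gave 48.6 and 66.4 (log2 0.47). Probe set 1442749_at gave 52.1 and 30.7 (log2 -0.74). By the mean over both arrays 1435434_at and 1435480_at were the brightest, at 1.06-fold and 1.39-fold higher, but on the wild type array 1442749_at was brighter than 1435480_at. Probe set 1445786_at gave 24.9 in wild type and 6.68, under the floor, in TIF1γ Δ/Δ cells, and is at least 2.1-fold lower. Of the remaining 4, 1458641_at reached 12.5 on the TIF1γ Δ/Δ array only, and 3 lay under the floor on both.

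**Figure D2:**
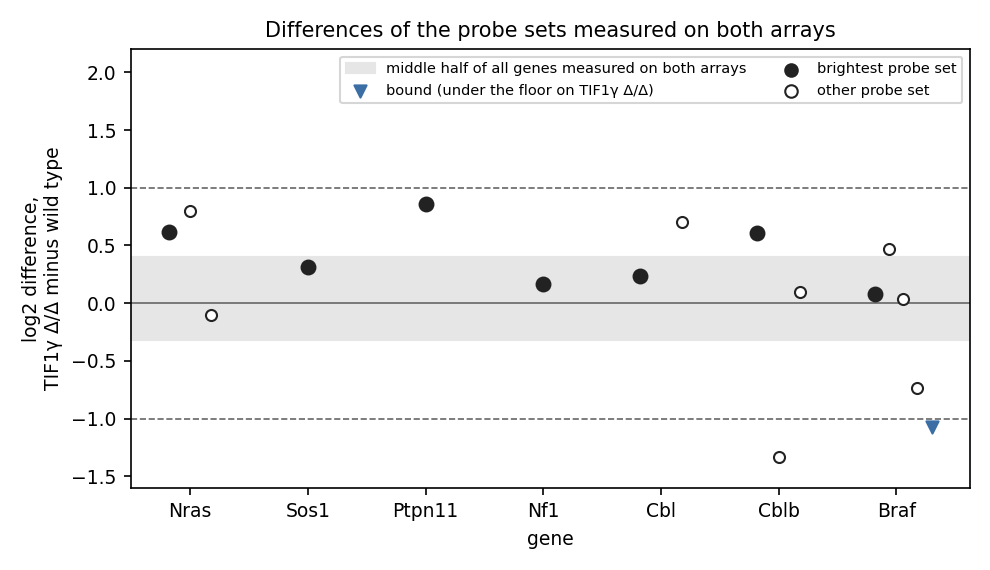
Log2 difference (TIF1γ Δ/Δ minus wild type) of the 15 probe sets measured on both arrays, by gene, with the brightest probe set of each gene filled, the others open and the 1 bound of Braf as a triangle; the grey band is the interquartile range of all genes measured on both arrays, -0.32 to 0.40, and dashed lines mark 2-fold. The filled points of Nras, Ptpn11 and Cblb lie above the band and under 2-fold, and an open point of Cblb lies at -1.33.

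The starts of 3 of these genes are shown because the differences of Ptpn11 and Nras were among the largest and that of Sos1 was intermediate, and because the 95 bases before each start lie outside every RefSeq gene. The arrays measured RNA and not these sequences. They are RefSeq sequences of GRCm38.p6, written 5′ to 3′ along the gene, with each match to the GC box GGGCGG on either strand in capitals. Nras is at chr3:103058190-103058284 on the plus strand, Ptpn11 at chr5:121191398-121191492 on the minus strand and Sos1 at chr17:80480454-80480548 on the minus strand.
Nras: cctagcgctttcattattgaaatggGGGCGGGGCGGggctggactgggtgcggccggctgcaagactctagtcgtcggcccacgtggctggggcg
Ptpn11: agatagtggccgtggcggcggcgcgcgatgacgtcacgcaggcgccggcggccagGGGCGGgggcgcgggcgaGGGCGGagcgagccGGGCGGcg
Sos1: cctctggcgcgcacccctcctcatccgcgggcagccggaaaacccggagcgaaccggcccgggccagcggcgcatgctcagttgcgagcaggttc

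Nras held 2 matches to the GC box, which share a base where they meet, Ptpn11 held 3 and Sos1 none. Of the 8 genes, with Hras included, 5 held at least 1 in this window, against 24.1% of 32851 RefSeq promoter entries. The windows of Hras, Nf1, Cbl, Cblb and Braf overlap the RefSeq span of their own gene. A CCAAT box was present in 2 of the 8, against 18.1% of entries, and the ETS core CCGGAAG in none of the 8, against 4.40%. G and C made up 67.4% of the Nras window, 83.2% of that of Ptpn11 and 72.6% of that of Sos1, with a median of 54.7% over all entries. The part of base composition in these counts was not tested. GC box matches numbered 3 in Ptpn11 (log2 0.86), 2 in Nras (log2 0.61), 2 in Cblb (log2 0.61) and 1 in Braf (log2 0.077). Sos1 (log2 0.31), Cbl (log2 0.24) and Nf1 (log2 0.17) had none. The probe sets of Cblb disagreed, and a link between matches and differences was not tested.

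Other genes of the pathway, and other genes mutated or altered in myelomonocytic leukaemia, were described with 10 lists of 157 genes. Of the 157, 143 had a probe set and 131 were measured on at least 1 array. Of the 131, 8 (6.11%) were higher and 8 (6.11%), including the deleted Trim33, lower by 2-fold or more. Over all genes the shares were 2.53% and 6.01%. The median of the 131 was 0.13 and 58.0% lay above 0, against 0.00023 and 50.03% over all genes measured on at least 1 array. The lists share genes, and no list was tested. Under scaling alternatives each list's median kept its sign. Medians close to 0 are given as values only.

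The other RAS GTPases and their close relatives, which include the RAP and RAL proteins, had a median of -0.17, with 4 of 12 above 0 and none 2-fold apart. The brightest were Rap1b, with 4419 and 3885 (log2 -0.16), and Rap1a, with 3241 and 2823 (log2 -0.18), both regulators of adhesion. Nras (log2 0.61) lay above all 12 of them, which ran from -0.93 for Rit1 to 0.30 for Rras2, named after their values were seen. Exchange factors had a median of 0.43, with 6 of 9 above 0 and none 2-fold apart. Sos2, the close relative of Sos1, gave 212 and 281 (log2 0.43), and the RAL exchange factor Rgl2 gave 269 and 323 (log2 0.29). The list also holds exchange factors of RAP and RAL. Of its SOS and RASGRP members, Sos2, Rasgrp2 (log2 -0.37) and Rasgrp3 (log2 -0.86) were measured, the last 2 named after their values were seen.

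GTPase-activating proteins and inhibitors of RAS had a median of 0.26 over 13 measured genes, of which 8 lay above 0. Only Dab2ip was 2-fold apart, at 49.1 and 19.9 (log2 -1.28), and its second probe set, 1441170_a_at, was at -0.056. Named after its value was seen, the receptor feedback inhibitor Spry2 gave 122 and 236 (log2 0.97).

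Adaptors and partners of SHP2 had a median of -0.034, with 8 of 16 above 0 and none 2-fold apart. The brightest were the adaptor Crk, at 545 and 691 (log2 0.37), and the phosphatase Ptpn6, the relative of Ptpn11 that restrains receptor signals, at 480 and 449 (log2 -0.071, with 1 of 2 probe sets below 0). Ptpn11 (log2 0.86) and Ptpn6 thus differed by unequal amounts between the same arrays. Named after its value was seen, Grb2, the adaptor that carries SOS1, gave 345 and 442 (log2 0.38, 2 of 2 probe sets above 0).

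The CBL family and its partners had a median of 0.38, with 9 of 12 above 0. Ubash3a, a protein of lymphocytes that binds CBL, gave 39.2 and 81.8 (log2 1.09), and the ubiquitin-conjugating enzyme Ube2d1 gave 39.8 and 79.7 (log2 1.02). A second Ubash3a probe set, 1431698_at, gave 1.69 and 1.09 and was not measured. Named after its value was seen, Cblc, the family member of epithelial cells, gave 30.1 in wild type and passed no floor with the deletion, at least 2.54-fold lower. This bound of Cblc rests on 1431692_a_at alone, as 1422666_at gave 0.75 and 0.74 and was not measured. The median of this list was -0.013 when all probe sets of a gene were averaged.

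RAF, MEK and ERK kinases and their scaffolds had a median of 0.19, with 10 of 13 above 0 and none 2-fold apart. The brightest were Pebp1, an inhibitor of RAF, at 6203 and 6378 (log2 0.064), and Ywhab, a 14-3-3 protein that binds RAF, at 4243 and 4928 (log2 0.24). Named after their values were seen, Map2k1 (log2 0.43), Map2k2 (log2 0.25) and Araf (log2 0.19) are the kinases next to Braf (log2 0.077) in the cascade. Of the enzymes that attach RAS to membranes, 4 of 10 lay above 0 at a median of -0.064. Icmt, which methylates the end of RAS proteins, gave 38.0 and 85.9 (log2 1.20) and was the only 1 that was 2-fold apart.

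Genes that respond to ERK activity had a median of 0.20, with 13 of 19 above 0, 2 at least 2-fold higher and none lower. Ccnd1, a D-type cyclin, gave 121 and 351 (log2 1.56), and all 3 of its probe sets lay above 0. Etv5, an ETS factor induced by ERK, gave 48.5 and 124 (log2 1.37). Its other 2 probe sets passed only the lower floor of the TIF1γ Δ/Δ array and give no bound on the difference. They gave 11.7 and 11.9 (1420998_at) and 7.13 and 12.3 (1450082_s_at). Named after their values were seen, the feedback inhibitors Dusp6 (174 and 295, log2 0.79), Spry2 (log2 0.97) and Spred1 (301 and 483, log2 0.71, 7 of 7 probe sets above 0) were higher by less. The probe sets of the feedback inhibitor Spry4 disagreed, as 1440867_at was measured only in wild type and 1422021_at only with the deletion. Of the remaining genes, also named afterwards, Fos gave 4352 and 4672 (log2 0.13), Myc was at 0.20 and Egr3 at 0.41. Egr1 gave 2379 and 1707 (log2 -0.46), Egr2 was at -0.17, Ier2 at -0.16 and Ier3 at -0.52.

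**Figure D3:**
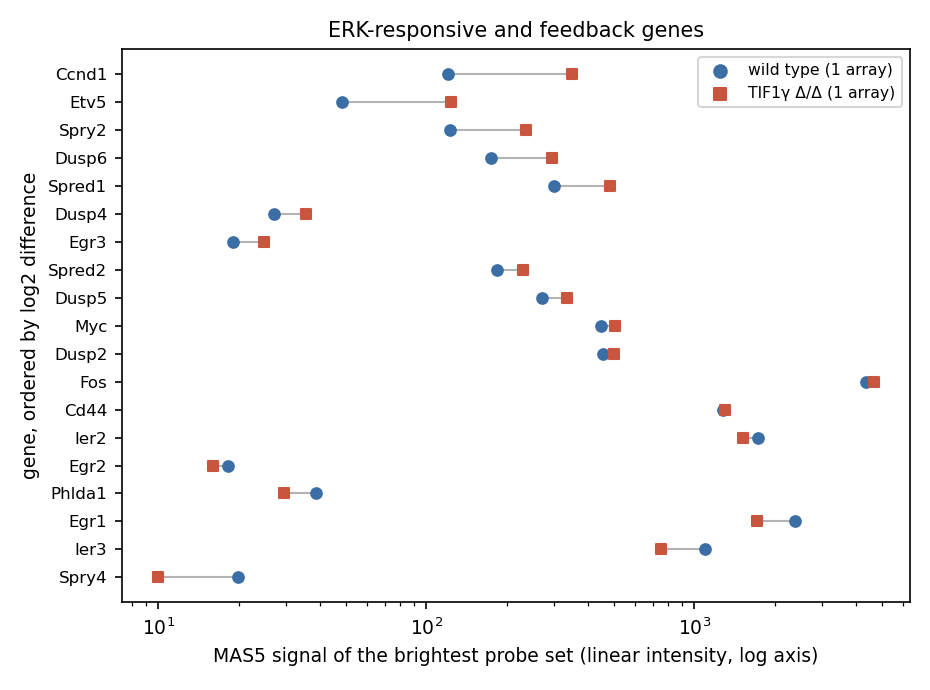
MAS5 signal (linear intensity, log axis) of the brightest probe set of 19 ERK-responsive and feedback genes on the wild type array (blue circles) and the TIF1γ Δ/Δ array (red squares), ordered by log2 difference with the most positive at the top. Ccnd1 and Etv5 show the widest gaps, and Spry4 (by a probe set under the floor with the deletion), Ier3 and Egr1 lie at the bottom with lower signal on the TIF1γ Δ/Δ array.

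Among receptors that signal through RAS, 2 of 15 were at least 2-fold higher and 4 lower, at a median of -0.048. The macrophage growth factor receptor Csf1r had a log2 difference of -2.88, and those of erythropoietin, Epor (log2 -1.16), and of GM-CSF, Csf2ra (log2 -1.13, but below 0 in 1 of 2 probe sets), were lower as well. Pdgfrb, a receptor of mesenchymal cells, gave 118 and 279 (log2 1.27). This value of Pdgfrb rests on 1436970_a_at alone, as 1417148_at gave 5.11 and 11.3 and was not measured. Named after their values were seen, Kit gave 384 and 495 (log2 0.39) and Flt3 gave 464 and 534 (log2 0.23). Tek was at 1.02, and Met was at least 2.57-fold lower. The bound of Met rests on 1434447_at alone, as 1422990_at gave 1.20 and 0.31 and was not measured. Of 19 other genes listed as mutated or altered in myelomonocytic leukaemia, among them the deleted Trim33, 13 lay above 0 at a median of 0.34. Jak3, a kinase of cytokine receptors, gave 36.0 and 99.6 (log2 1.49), whereas Tet2 (log2 -1.53) and the deleted Trim33 were lower.

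**Figure D4:**
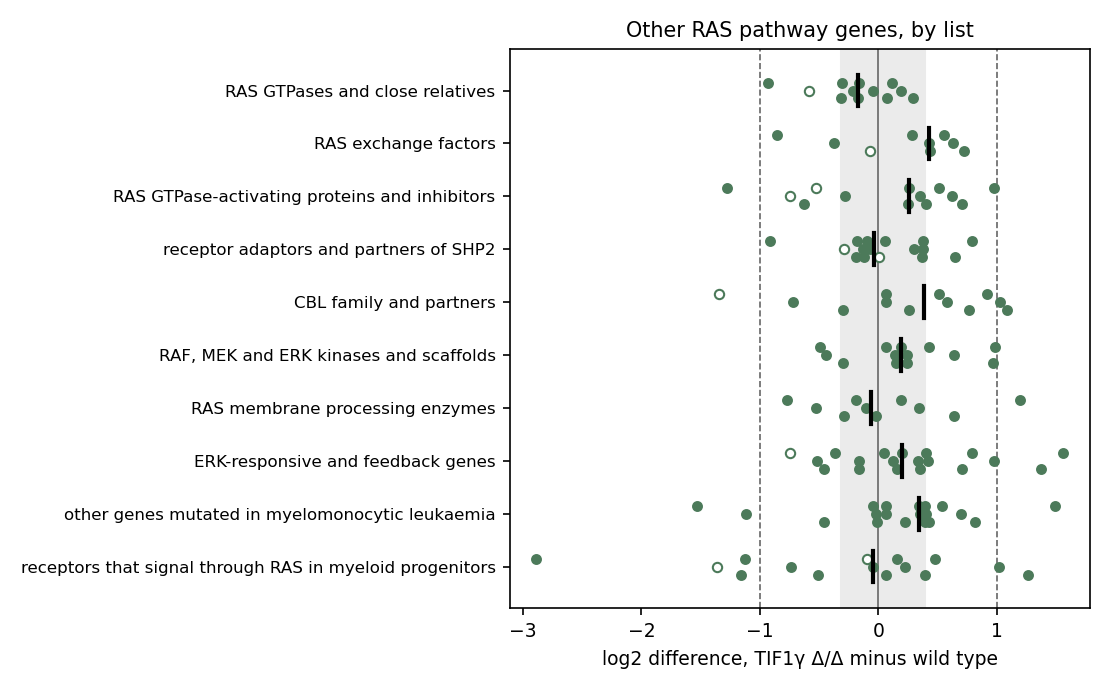
Log2 difference (TIF1γ Δ/Δ minus wild type, x axis) of each measured gene of 10 lists, with the median of each list as a black bar. The lists hold genes of the RAS pathway and other genes mutated or altered in myelomonocytic leukaemia. Open points were measured on 1 array only. The grey band is the interquartile range of all genes measured on both arrays and dashed lines mark 2-fold. List medians run from -0.17 for RAS GTPases to 0.43 for exchange factors, and the lowest single value is Csf1r at -2.88.

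The 2 samples also differed in the markers of mature cells. Of 20 measured neutrophil and macrophage markers, 20 were lower by 2-fold or more with the deletion, and their summed signal was 42804 in wild type and 1585 in TIF1γ Δ/Δ cells; 1 further marker was under the floor on both. The brightest was S100a8 on the wild type array (9568) and Ctss on the TIF1γ Δ/Δ array (720). Of 12 erythroid markers 9 were at least 2-fold lower (summed signal 7880 and 3623, Car2 brightest on both), as were 3 of 7 B cell markers (739 and 227, brightest Vpreb1 and Cd79b) and 4 of 9 markers of T and NK cells (1742 and 1288, Nkg7 brightest on both). Of 10 megakaryocyte and mast cell markers 1 was at least 2-fold higher (2953 and 4094, Pf4 brightest on both). Markers of the sorted fraction were measured on both arrays, 10 of 10, with sums of 7032 and 8977 and Hoxa9 and Cd34 the brightest; Ly6a, the gene for Sca, had no probe set in the annotation used. No marker was listed at 0. Some markers are also on the receptor list above. They are Csf1r (log2 -2.88) of the neutrophil and macrophage markers, Epor (log2 -1.16) of the erythroid markers, and Kit and Flt3 of the sorted fraction. The differences of the markers lay beside those of the other RAS pathway genes, and their part in them was not tested.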

How the data were processed

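KLS cells of wild type and TIF1γ Δ/Δ mice were measured on 1 array each, grouped by the genotype label. The deposited values are intensities per probe set on a linear scale, which per the submitters' processing notes the authors made using MAS5; the sources used here do not give its version. Their mean was 100.001 on each array after trimming 2% at each end, so they had been scaled before deposit, and the number of arrays limits the precision. MAS5 subtracts mismatch signals, so low values are noisy. Controls (64 probe sets) were removed; of the other 45037, 34945 had 1 gene, 932 several and 9160 none. Symbols were updated by Entrez identifier to those of RefSeq for 34741 of them.

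The floor, the centring and the choice of the brightest probe set (highest mean log2 signal) are as in the report. With 1 array a group no test was made. Differences between probe sets of a gene had an SD of 0.45 (log2) over 4534 genes, the yardstick for whether a value moved under an alternative. The procedure was tested on simulated data. All 7 members with probe sets are named, and from each list up to 4 genes 2-fold apart and measured on both arrays, or else the 2 brightest. The members and lists were chosen with earlier results of these data known. Computation used Python 3.11.15, numpy 2.4.6, pandas 2.3.3, scipy 1.17.1, statsmodels 0.14.6 and matplotlib 3.10.9. Alternatives varied scaling, floor, pseudocount (16), probe set rule and fold.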

Additional observations from a re-analysis of the deposited data

How the results depend on the processing

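Over the alternatives run for each, no member's value by gene changed by more than the probe set SD except Cblb, at -0.19 with the mean of all probe sets. Nras ran from 0.45 to 0.80, Ptpn11 from 0.76 to 1.19 (2-fold only with the mean of all probe sets), Cbl from 0.059 to 0.33, Sos1 from 0.18 to 0.41 and Nf1 from 0.11 to 0.43. Braf was below 0 with loess (-0.0014) and with the mean of all probe sets (-0.23). Member probe sets at least 2-fold higher numbered 5 with no floor and 5 at 1.5-fold. Those lower numbered 1 with quantile normalization, loess, the 65th percentile floor and the pseudocount, 5 with no floor and 0 at 3-fold. The bound of Braf 1445786_at was the one lost with quantile normalization (-0.80), loess (-0.82) and the pseudocount (-0.82), while Cblb 1458469_at stayed between -1.39 and -1.03. Over all genes, 170 were higher and 412 lower for the 65th percentile floor, 2025 and 2784 with no floor, 180 and 423 with the pseudocount, 1579 and 1791 at 1.5-fold, and 26 and 266 at 3-fold. Probe sets numbered 893 higher for the 40th percentile floor, 282 higher and 634 lower at the 65th, 4374 and 5865 with no floor, 314 and 645 with the pseudocount, 2815 and 3232 at 1.5-fold, and 55 and 387 at 3-fold. Of 613 values of lists, other genes and single probe sets, 535 did not move and 78 did. These include Etv5 (0.65) and Dab2ip (-0.65) with the mean of all probe sets, and Tek (0.084) at the 65th percentile. No paired analysis was possible because each genotype had 1 array. Signal near the floor limits Nf1 and the dim probe sets of Ptpn11, Braf and Sos1.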

Other observations

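Close relatives within the pathway did not always differ alike between the 2 arrays; these pairs were chosen after their values were seen. Among GTPase-activating proteins, Rasa1 gave 197 and 231 (log2 0.25), Rasa2 gave 91.3 and 108 (log2 0.26, but -0.097 by a second probe set) and Rasa3 gave 379 and 531 (log2 0.51), whereas Rasa4 gave 33.0 and 21.0 (log2 -0.63). The feedback inhibitors Spred1 (log2 0.71) and Spred2 (183 and 229, log2 0.35) both lay above 0, as did Spry1, with 71.3 and 92.8 (log2 0.40). Of 3 Spred2 probe sets measured on both arrays 2 lay above 0, and 1441415_at was at -0.066. Its probe set 1441802_at gave 19.8 in wild type and 7.81, under the floor, with the deletion. Spry4 gave 19.8 and 9.95 with 1440867_at but 6.53 and 20.1 with 1422021_at, each under the floor on 1 array. Of the RASGRP exchange factors, Rasgrp2 gave 244 and 186 (log2 -0.37, with 2 of its 4 measured probe sets below 0 and 2 above) and the dim Rasgrp3 gave 23.2 and 12.6 (log2 -0.86), while Rasgrp1 and Rasgrp4 lay under the floor on both arrays. Among the adaptors, Crkl gave 241 and 410 (log2 0.79) and Crk had a log2 difference of 0.37, with 2 of its 4 measured probe sets above 0.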
